A study of Mus musculus with 2 samples.

Results

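The AP-1 and BATF family genes Jun, Junb, Jund, Fos, Fosb, Fosl1, Fosl2, Batf, Batf3 and Atf3 are 10 of the 21938 protein-coding genes of the mouse annotation used here. Their regions were taken as every open region that touched the gene body or the 20 kb on either side of it. That gave 99 regions in replicate 1 and 91 in replicate 2. After overlapping regions of the replicates were joined, 87 were found in both, out of 84380 in the whole genome. Another 11 were found in replicate 1 only and 3 in replicate 2 only. No region belonged to the windows of 2 genes.

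The labels give the assay as ATAC-seq, in which a transposase inserts adapters into open DNA, and the cells as primary mouse T-helper 1 cells of the strain C57BL/6NJ. There was 1 group with 2 replicates and no second condition, so all comparisons are between genes and regions of the same cells. The labels give both biosamples 1 donor identifier, and separate animals are not stated, so the spread between replicates may be technical. The names of the deposited regions also carry the words ASTARR and insert, and a time in hours. What the time refers to is not stated. What the words stand for is not stated either, so the regions may come from ordinary ATAC-seq libraries or from DNA cloned for a reporter assay. Sex and age of the mice are not stated either.

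AP-1 is a dimer of basic leucine zipper proteins. A Jun protein pairs with itself, with a Fos protein or with a BATF protein, and the dimer binds the element TGACTCA or, in some pairings, the related cAMP response element TGACGTCA. In T cells the pathway is driven by the antigen receptor through MAP kinases. Jun, Fos and several relatives are immediate early genes, switched on within a short time of a stimulus from promoters that need no new protein. BATF proteins have no activation domain of their own and act in T cells with Jun partners and the factor IRF4 on composite elements.

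All 10 genes had a region of both replicates within 1 kb of an annotated start, which is called an open promoter here. The same held for 65.9% of all protein-coding genes. The genes differed in the strength of those regions, in the number and strength of the regions around them, and in the elements under them.

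Stretches before the start of Fos, Fosb, Junb, Jun, Jund and Batf are shown first. They were cut around chosen elements and run from 60 bp in Jund to 300 bp in Fos. The lines therefore cannot be compared for what they lack, and half-sites outside them, as in Jun, are not shown. Each line runs 5′ to 3′ along the gene in build mm10. Capitals mark the serum response element (the CArG box bound by serum response factor), the half-site TGACG of the cAMP response element on either strand, the full element TGACGTCA, the TATA box TATAAA, or the variant AP-1 element TGACATCA of the Jun promoter.
Fos, chr12:85473570-85473869, plus strand: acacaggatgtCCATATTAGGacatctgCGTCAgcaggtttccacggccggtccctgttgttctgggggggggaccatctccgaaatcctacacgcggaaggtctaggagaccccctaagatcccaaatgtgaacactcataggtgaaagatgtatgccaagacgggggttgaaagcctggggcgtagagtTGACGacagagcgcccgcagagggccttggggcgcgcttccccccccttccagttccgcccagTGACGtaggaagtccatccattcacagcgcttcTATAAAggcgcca
Fosb, chr7:19310072-19310341, minus strand: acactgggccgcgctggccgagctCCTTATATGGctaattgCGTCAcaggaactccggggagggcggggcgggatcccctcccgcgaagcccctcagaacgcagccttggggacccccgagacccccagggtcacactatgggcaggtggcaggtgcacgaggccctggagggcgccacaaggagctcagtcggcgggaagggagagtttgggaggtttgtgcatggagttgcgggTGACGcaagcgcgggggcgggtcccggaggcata
Junb, chr8:84978719-84978878, minus strand: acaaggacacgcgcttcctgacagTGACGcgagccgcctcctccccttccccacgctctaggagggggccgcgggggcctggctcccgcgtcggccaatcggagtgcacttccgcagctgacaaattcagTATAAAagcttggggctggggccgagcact
Jun, chr4:95052223-95052352, minus strand: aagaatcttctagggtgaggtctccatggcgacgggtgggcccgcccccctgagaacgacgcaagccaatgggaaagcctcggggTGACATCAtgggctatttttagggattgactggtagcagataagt
Jund, chr8:70698709-70698768, plus strand: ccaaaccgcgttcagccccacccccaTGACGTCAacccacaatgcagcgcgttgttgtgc
Batf, chr12:85686509-85686648, plus strand: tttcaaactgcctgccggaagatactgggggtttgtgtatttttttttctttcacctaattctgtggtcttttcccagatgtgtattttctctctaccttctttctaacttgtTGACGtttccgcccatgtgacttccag

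In Fos the serum response element began 309 bp before the first protein-coding start, and in Fosb 266 bp before it. In both genes a half-site, read as CGTCA, began 17 bp after the beginning of the serum response element. In the 500 bp before the start, 2 of the 10 genes held a serum response element, against 2.67% of all protein-coding genes. At least 1 half-site lay in this window in 9 of the 10 genes, Batf3 being the exception, against 27.6% of all genes. So within this window the serum response element was found in Fos and Fosb, and half-sites in all of the 10 genes but Batf3. The shares of all genes include genes without an open promoter. Outside the window, Junb held a serum response element 1450 bp before its start, in an open promoter region. The TATA box lay 33 bp before the start in Fos and 30 bp before it in Junb. A site 132 bp before the start was found in Fosl1. Anywhere in the 500 bp, on either strand, a TATA box was found in 3 of the 10 genes, against 23.6% of all genes. The full cAMP response element was found in Jund, 214 bp before the start, and in 2.28% of all genes. The variant AP-1 element was found in Jun, 45 bp before the start, and in 4.03% of all genes. Half-sites can lie inside the full element, as in Jund. This window and the half-site, TATA box and variant AP-1 motifs were chosen after the sequences were seen. The shares therefore cannot show that the 10 genes stand apart. A match is a run of letters, not a bound site.

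The RefSeq promoter table (GRCm38.p6, 250 bp before to 50 bp after the start) held 9 of the 10 genes, Fosl1 being the one without an entry. None of the 9 held TGACTCA, an element found in 5.20% of the table's 32851 promoters. A GC box, GGGCGG, was found in 7 of the 9 and in 35.7% of all promoters. The half-site TGACG was found in 5 of the 9 and in 20.8% of all promoters. For Jund the table holds another stretch, chr8:70697489-70697788, which lies upstream of the start used here and outside its open promoter region. The Fosl2 entry, chr5:32136222-32136521, lies downstream of the start used here. The Atf3 entry, chr1:191183284-191183583, lies at an internal start. Outside the entries, open promoter regions of Fosl1, Fosl2 and Atf3 held TGACTCA. It lay 53 bp downstream of the first protein-coding start in Fosl2, 350 and 1308 bp in Fosl1, and 1728 and 35248 bp in Atf3.

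Within the Jun family, Jun had the fewest regions and the widest promoter. Jun is the AP-1 subunit that is phosphorylated by the JNK kinases. Its promoter region spanned 3427 bp (chr4:95050101-95053527), wider than 99.9% of all regions found in both replicates, and also covered the start of the antisense gene Junos. Its signal, the enrichment given by the authors' region caller, was 5.96 in replicate 1 and 5.60 in replicate 2, and pairs of values are given in this order of replicates from here on. The summit, the point of highest coverage, lay 2 bp before the start. The other 3 regions lay 11.2 to 16.7 kb downstream in an intron of the noncoding gene Gm12703. The farthest of them was the strongest region of the Jun window, with signals of 15.2 and 14.0 (chr4:95035154-95035972), or 2.52 times the promoter.

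Junb, whose product is induced with Jun and was first described as a weaker activator, had 11 regions and all of them were found in both replicates. Its promoter region was also broad, 3153 bp (chr8:84975865-84979017), but its signals were only 3.76 and 3.41. The summit of that region did not lie at the start but 2089 bp downstream of it, and a serum response element lay there. A second promoter region, 1.2 kb upstream of the start by its summit, had signals of 2.88 and 2.84. The strongest region of the window, with 17.6 and 15.1, lay at the neighbouring gene Hook2 and had the highest mean signal in the windows of all 10 genes. In replicate 2 alone, the strongest regions of Fosl2 and Fos were higher. Of the 11 regions, 5 were promoters of the neighbours Rnaseh2a, Prdx2, Gm49661 or Hook2. Outside promoters, the strongest was 7.3 kb upstream, with signals of 4.48 and 4.35, and it held TGACTCA 4 times away from its summit.

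Jund, the Jun protein that is present without a stimulus in most cells, had 7 regions found in both replicates and 3 in replicate 1 only. Its promoter, which also serves Gm11175, had signals of 6.22 and 5.85 and a summit 13 bp before the start (chr8:70698119-70700086). Regions outside promoters were weak here. The strongest, 19.3 kb upstream, had 3.51 and 3.46, or 0.578 times the promoter, the lowest such ratio of the 10 genes. The strongest region of the window, with 9.35 and 8.85, was the promoter of the neighbour Gm3336.

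**Figure D1:**
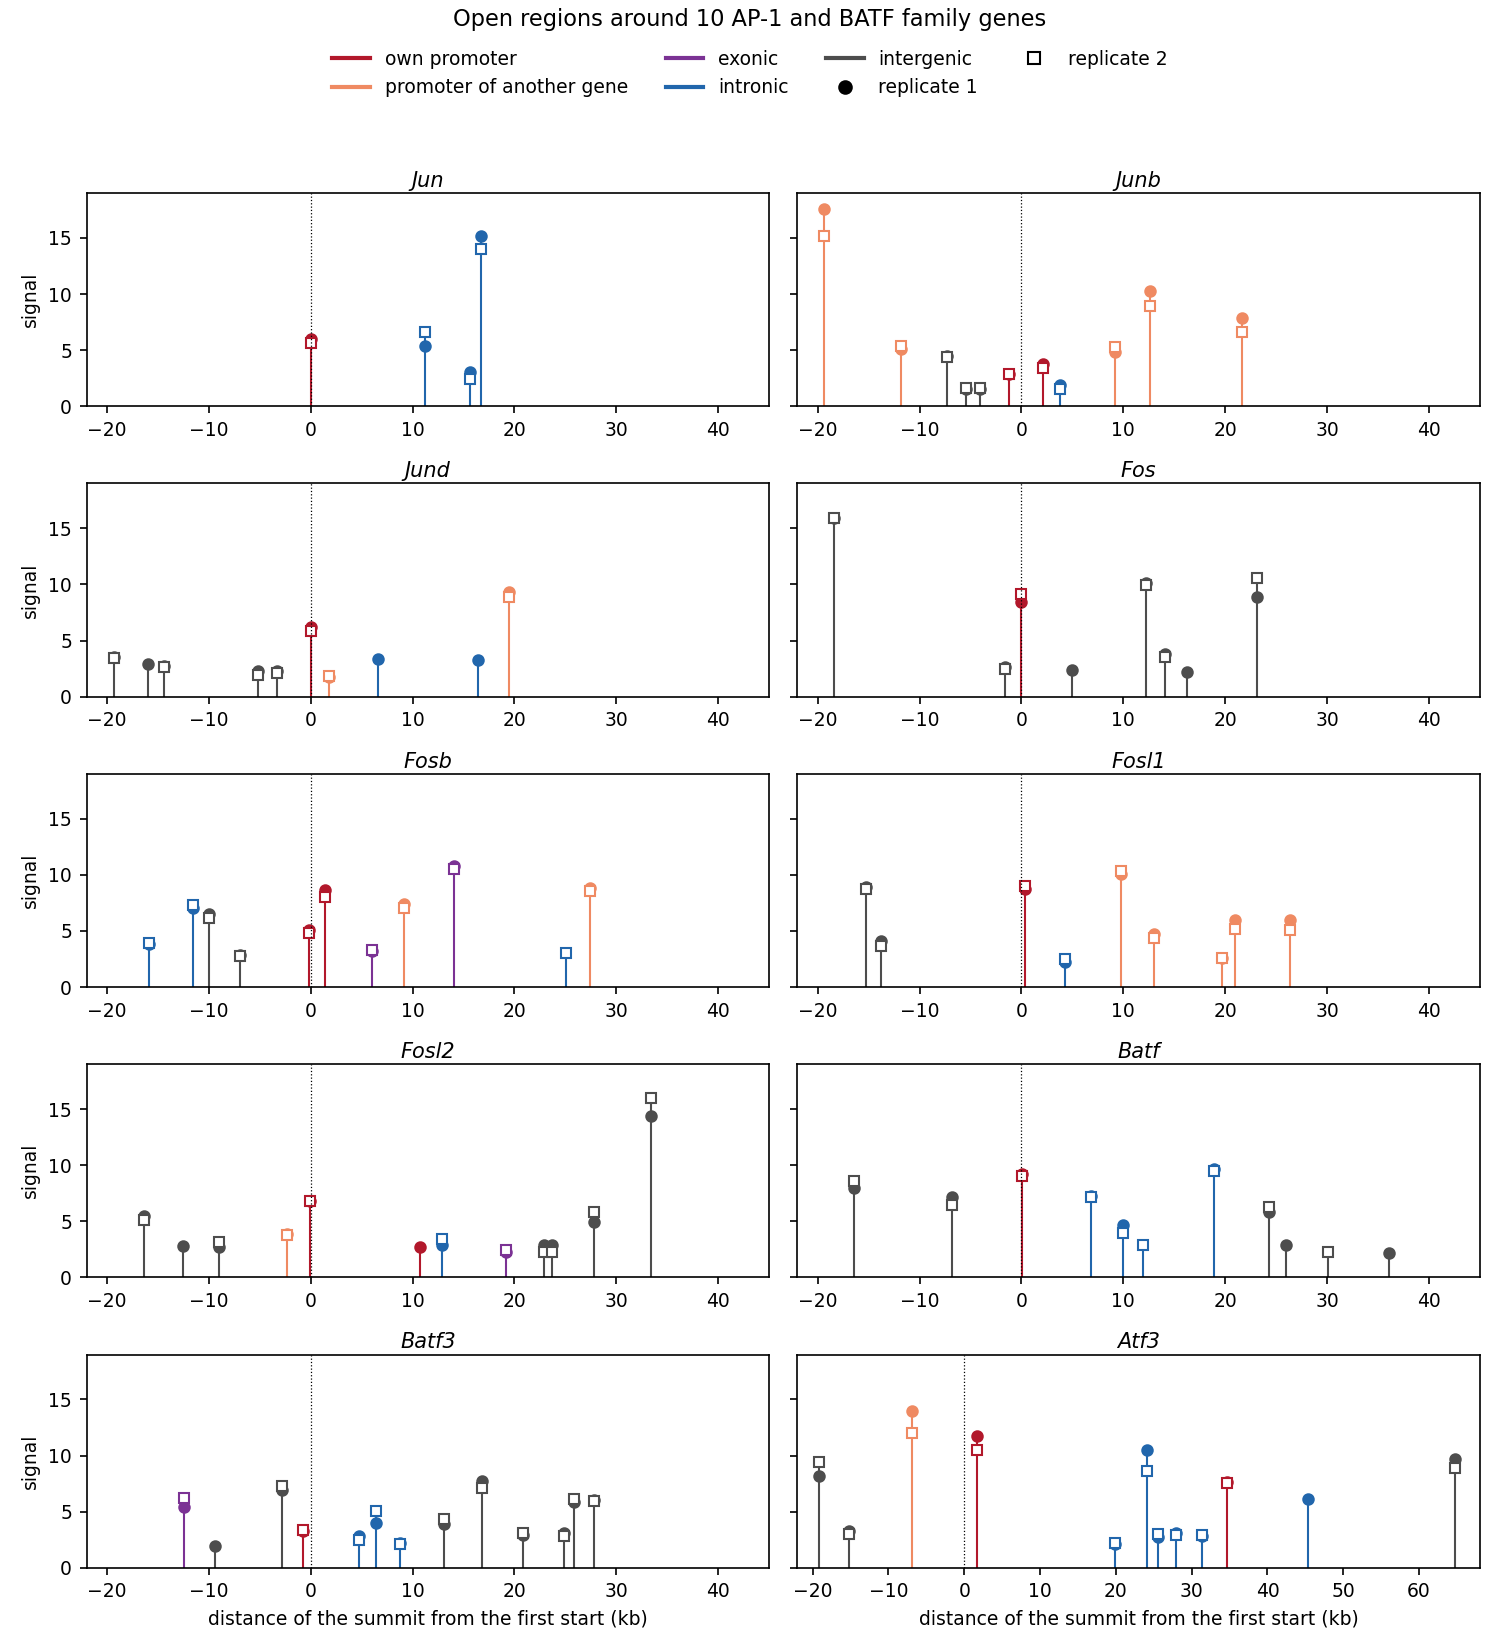
Every open region in the window of each gene, by the distance of its summit from the first protein-coding start (kb, positive is downstream along the gene) and its signal in replicate 1 (filled circles) and replicate 2 (open squares). Colours give the location, and a region with a single symbol was found in that replicate only or has both symbols on top of each other. The tallest regions of Jun, Fos and Fosl2 lie 16.7, 18.4 and 33.4 kb from the start.

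Among the Fos family, Fos, the partner with which Jun forms the classical AP-1 dimer, had 6 regions found in both replicates and 2 weak ones in replicate 1 only. The promoter, with signals of 8.44 and 9.16, had its summit 6 bp before the start (chr12:85473002-85475030). An intergenic region 18.4 kb upstream reached 15.9 in both replicates (chr12:85454994-85455985), 1.81 times the promoter and stronger than 96.2% of all regions found in both replicates. An intergenic region 12.2 kb downstream, with 10.2 and 9.98, also lay above the promoter in both replicates. Another, 23.1 kb downstream, had 8.85 and 10.6, above the promoter in each replicate, though its value in replicate 1 lay below that of the promoter in replicate 2.

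Fosb, which also yields a shorter protein without activation domain that accumulates on repeated stimulation in neurons, had 10 regions found in both replicates. Its promoter was split. The region over the start and the serum response element had signals of 5.10 and 4.78, while a wider one inside the gene, with its summit 1411 bp downstream, had 8.61 and 8.05. The values used for Fosb below are those of the stronger region. The strongest region outside promoters, with 10.8 and 10.5, lay 14.1 kb downstream of the start, at 1.28 times the promoter. It lay beyond the end of Fosb, in an exon of another gene.

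Fosl1 and Fosl2 encode FRA-1 and FRA-2, Fos relatives without the activation domain of Fos. Fosl1 had 9 regions, all found in both replicates, but 5 of them were promoters of Ccdc85b, Fibp, Ctsw or Efemp2. Its own promoter had signals of 8.75 and 9.00. A region 15.3 kb upstream had signals of 8.89 and 8.71, and these values overlap those of the promoter. In Fosl2, an intergenic region 33.4 kb from the start had 14.4 and 16.0, against 6.77 and 6.80 at its promoter (chr5:32135031-32136707), a ratio of 2.24. The other Fosl2 regions found in both replicates stayed at or below the promoter. The next strongest by mean, 27.8 kb downstream, had 4.94 and 5.83. These values overlap those of a region 16.4 kb upstream, with 5.51 and 5.14.

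Batf, which T-helper 17 and follicular helper cells need for their differentiation, had 7 regions found in both replicates and 4 in a single replicate, more single ones than any other of the 10 genes. Its promoter had signals of 9.25 and 9.04 (chr12:85686177-85688314). An intronic region 18.9 kb downstream had 9.70 and 9.47 (chr12:85704667-85706285), 1.05 times the promoter. By −log10 p that intronic region stood much higher than the promoter, at 427 and 369, against 168 and 142.

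Batf3, which conventional type 1 dendritic cells need to develop, had the most regions, 12 found in both replicates. Its promoter, counted within 1 kb of a start, was the weakest of the 10, with 3.31 and 3.37 and a summit 810 bp upstream of the start (chr1:191097019-191098868). Stronger regions lay on both sides. One 2.8 kb upstream had 6.91 and 7.30, and one 16.8 kb downstream had 7.72 and 7.09, or 2.22 times the promoter.

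Atf3, a stress-induced bZIP protein that represses many inflammatory genes, has an upstream start and an internal start, and each had its own region. Near the upstream start, a region with its summit 1744 bp inside the gene had signals of 11.7 and 10.5 (chr1:191216079-191217115). It comes within 1 kb of that start only through its extent in replicate 2. The region at the internal start had 7.62 and 7.55 (chr1:191182394-191184155). Outside promoters, the strongest was intronic, 24.1 kb downstream, with 10.5 and 8.59, or 0.859 times the region near the upstream start. The highest signals of the window, 14.0 and 12.0, were those of the promoter of the neighbour D730003I15Rik. With replicate 1 alone, or with a limit of 500 bp, the internal region becomes the strongest promoter region of Atf3, at 7.62 or at a mean of 7.58.

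**Figure D2:**
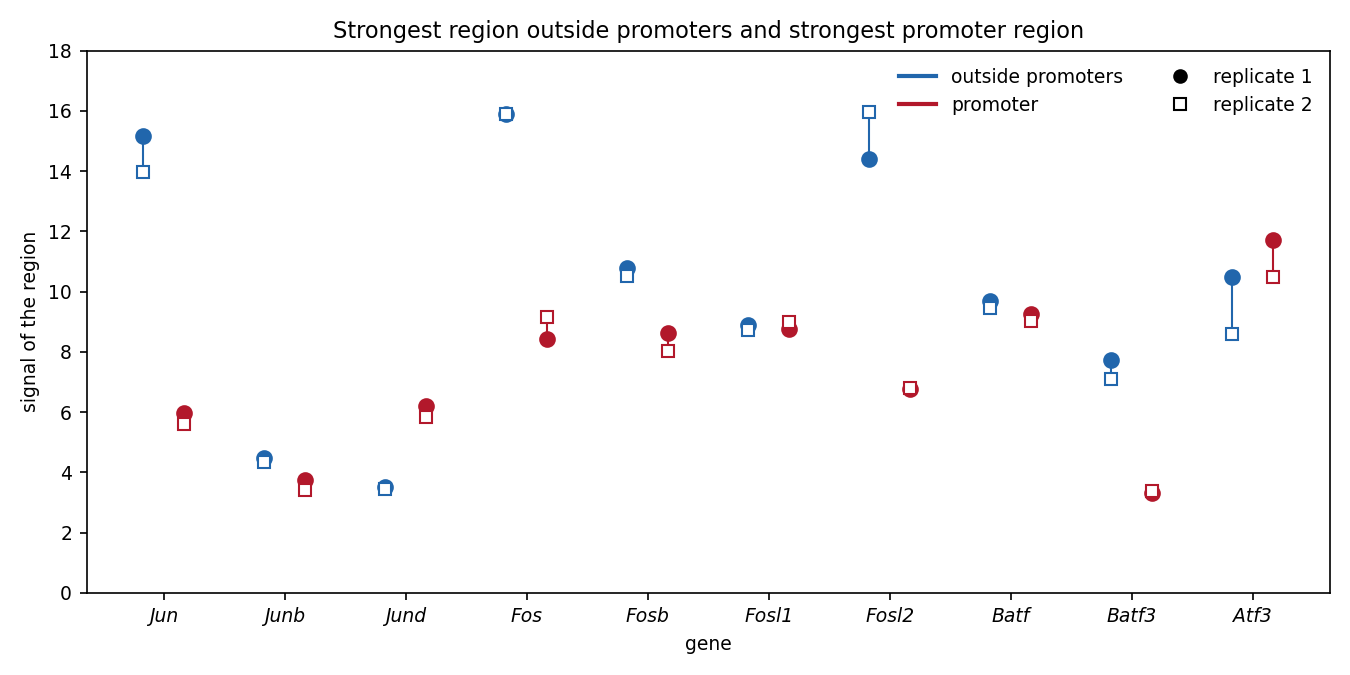
Signal of the strongest region outside promoters (blue, left) and of the strongest promoter region (red, right) of each gene, in replicate 1 (circles) and replicate 2 (squares). Blue lies above red in both replicates for Jun, Junb, Fos, Fosb, Fosl2, Batf and Batf3, below it for Jund and Atf3, and crosses it for Fosl1.

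In 7 of the 10 genes the strongest region outside promoters exceeded the promoter by mean signal, and in 6 by mean −log10 p. Among all 14452 protein-coding genes with an open promoter, this held for 42.9% by signal and 27.7% by −log10 p. Within the gene bodies alone it held for 2 of the 10 genes by signal, against 23.3% of all. By signal, the 3 highest ratios to the promoter were those of Jun, Fosl2 and Batf3. The strongest regions outside promoters of the 7 genes lay between 7.3 and 33.4 kb from the first start. Jun, Fosb and Fosl2 were among the 7 by signal but not among the 6 by −log10 p. Fosl1 and Atf3 were among the 6 only. By −log10 p the Jun region had 225 and 175, against 358 and 288 at its promoter. The Fosl2 region had 124 and 136, against 504 and 461, and the Fosb region 113 and 98.2, against 267 and 187. The Batf3 region had 295 and 246, against 62.9 and 60.6. Which gene such a region acts on was not measured.

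Ordered by mean promoter signal, Atf3 stood highest, followed by Batf, Fosl1, Fos, Fosb, Fosl2, Jund, Jun, Junb and Batf3. Within each replicate Fosl2, Jund, Jun, Junb and Batf3 kept this order below the others. The place of Fos differed between replicates. It lay below Batf, Fosl1 and Fosb in replicate 1 and above all of them in replicate 2. The values of Jund and Jun overlapped across replicates, but Jund lay above Jun in both. The first place of Atf3 rests on the region near the upstream start. With its internal region, as under the 500 bp limit or with replicate 1 alone, Atf3 was 5th. The last place of Batf3 rests on the limit of 1 kb. Within 2.5 kb of the start it was 6th, at 7.10, through the region 2.8 kb upstream. Against all open promoters of protein-coding genes, the 10 were low by signal. Atf3 was at the 49.2nd percentile, Batf at the 32.9th, Jun at the 12.0th, Junb at the 2.93rd and Batf3 at the 2.17th.

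The order was another one by −log10 p, which grows with the number of reads in a region as well as with enrichment. Fosl2 was highest, with 504 and 461, then Jund with 459 and 351 and Jun with 358 and 288. None of the 3 highest promoters by signal was among the 3 highest by −log10 p. The percentile of Fosl2 among open promoters was 17.4 by signal and 91.1 by −log10 p. For Jund it was 13.3 and 84.0, for Jun 12.0 and 72.9, and for Junb 2.93 and 46.5. Batf3 was lowest by both, at 2.17 and 18.1. The cause of the gap between the measures was not tested.

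**Figure D3:**
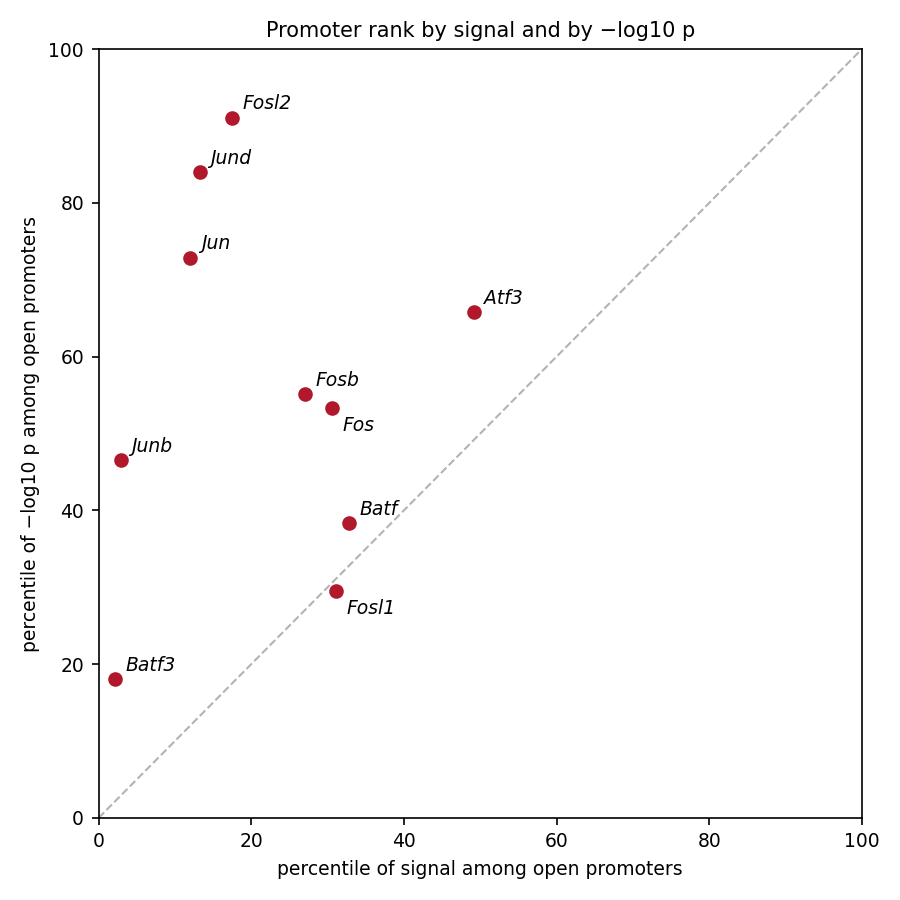
Percentile of each gene's promoter among all protein-coding genes with an open promoter, by signal (horizontal) and by the highest −log10 p of its promoter regions (vertical). The dashed line marks equal percentiles. Fosl2, Jund, Jun and Junb lie far above the line, and Fosl1 lies just below it.

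The genes had a median of 9.5 regions found in both replicates, against 4 for all protein-coding genes. Longer genes have longer windows, so each count was also set among the 2194 protein-coding genes of the same decile of gene length. Batf3, with 12, was at the 99.7th percentile of its decile, Junb, with 11, at the 99.5th and Fosb, with 10, at the 98.9th. Jun, with 4 regions against a decile median of 3, was lowest, at the 61.1st percentile. Fos was at the 81.8th and Batf at the 77.0th. Neighbouring genes add to some of these counts, as 16 of the 87 regions were promoters of other genes.

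**Figure D4:**
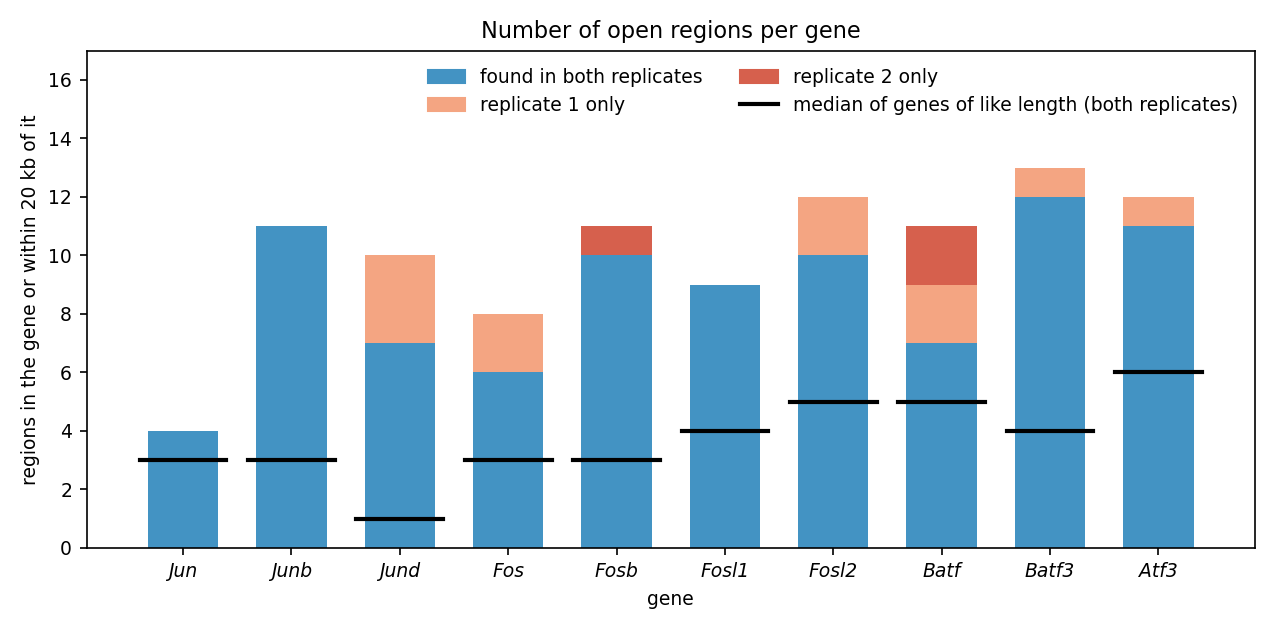
Number of open regions inside each gene or within 20 kb of it, split into those found in both replicates (blue), in replicate 1 only (light orange) and in replicate 2 only (red). Black lines give the median of protein-coding genes of like length, counted over regions found in both replicates. All 10 genes lie above their line, Jun by 1 region.

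The replicates were close at these genes. All 87 regions differed by less than 1.5-fold in signal, against 97.8% of all regions found in both replicates, and the largest difference was 1.28-fold. The summits of the replicates lay a median of 6 bp apart. The 14 regions found in 1 replicate had signals between 1.92 and 6.12. The strongest of them was an Atf3 intron region in replicate 1, 45.3 kb from the first start. Jun, Junb and Fosl1 had none.

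By location, 13 of the 87 regions were promoters of the 10 genes, 16 promoters of other genes, 4 exonic, 19 intronic and 35 intergenic. Exons and introns of any gene were counted. The promoter regions of the 10 genes had a median width of 1762 bp, a median GC content of 62.7% and a median of 15 CpG sites within 100 bp of the summit. The intergenic regions had 53.7% and 2, and the intronic regions 49.3% and 2.

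The AP-1 element lay at the summits of the regions of these genes in a share close to that of all regions. TGACTCA, searched on both strands within 100 bp of the summit in each replicate, was found in 16 of the 87 regions (18.4%), against 19.9% of all regions found in both replicates. Outside promoters it was found in 14 of 58, against 23.7% of all such regions. Over all locations, Batf3 and Atf3 had 3 regions with the element each, Jund, Fosb, Fosl1 and Batf had 2 each, and Jun and Fosl2 had 1 each. Junb and Fos had none. Neither form of the AP-1 and IRF composite element was found at a summit of the 87 regions. They were found in 0.598% and 0.370% of all regions, so their absence from 87 regions says little. A spaced form lay away from a summit, by 548 bp, in the Rtn2 promoter region of the Fosb window.

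The summits shown next hold an AP-1 element or a serum response element and span 60 bp on either side of it in build mm10, along the gene. Capitals mark TGACTCA or its relaxed form TGANTCA, the serum response element and the half-site TGACG. The first 2 lines compare a Junb and a Fos region with a serum response element in the summit windows of both replicates. The rest show 1 region each of Jund, Fosl1, Fosl2, Batf, Batf3 and Atf3 with an AP-1 element, or its relaxed form, within 60 bp of the summit.
Junb, 2.1 kb downstream of the start, chr8:84976569-84976689, minus strand: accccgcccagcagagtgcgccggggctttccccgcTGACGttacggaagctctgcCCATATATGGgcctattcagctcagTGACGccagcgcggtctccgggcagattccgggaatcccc
Fos, 12.2 kb downstream, intergenic, chr12:85486019-85486139, plus strand: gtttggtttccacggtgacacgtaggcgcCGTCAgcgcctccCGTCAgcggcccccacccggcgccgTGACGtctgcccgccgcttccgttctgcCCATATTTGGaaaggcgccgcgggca
Jund, 19.3 kb upstream, intergenic, chr8:70679587-70679707, plus strand: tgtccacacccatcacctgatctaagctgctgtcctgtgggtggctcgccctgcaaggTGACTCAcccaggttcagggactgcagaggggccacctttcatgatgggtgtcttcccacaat
Fosl1, 4.3 kb downstream, intronic, chr19:5451824-5451944, plus strand: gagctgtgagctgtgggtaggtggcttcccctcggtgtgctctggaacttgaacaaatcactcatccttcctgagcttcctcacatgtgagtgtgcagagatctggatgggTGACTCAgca
Fosl2, 33.4 kb downstream, intergenic, chr5:32169134-32169254, plus strand: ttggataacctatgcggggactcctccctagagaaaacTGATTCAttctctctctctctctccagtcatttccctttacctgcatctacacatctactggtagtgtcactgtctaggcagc
Batf, 6.8 kb downstream, intronic, chr12:85693413-85693533, plus strand: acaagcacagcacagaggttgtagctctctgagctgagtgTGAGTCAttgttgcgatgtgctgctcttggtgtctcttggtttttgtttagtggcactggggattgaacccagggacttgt
Batf3, 4.7 kb downstream, intronic, chr1:191102998-191103118, plus strand: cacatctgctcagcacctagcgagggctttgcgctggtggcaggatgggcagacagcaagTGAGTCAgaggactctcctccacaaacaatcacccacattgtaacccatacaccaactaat
Atf3, 1.7 kb downstream, near the upstream start, chr1:191216235-191216355, minus strand: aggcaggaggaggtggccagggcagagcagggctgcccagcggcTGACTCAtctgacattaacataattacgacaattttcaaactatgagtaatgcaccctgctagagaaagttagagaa

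In the Junb region the serum response element began 2085 bp downstream of the start, with a half-site 20 bp before it and another 25 bp after it. In the Fos region it began 12224 bp downstream, with 3 half-sites between 28 and 66 bp before it. These were the 2 of the 87 regions (2.30%) with the element in the summit windows of both replicates, against 0.670% of all regions. The Batf3 element lay on the summit itself, 4733 bp from the start. The Fosl2 line is the strongest Fosl2 region and holds the relaxed form TGATTCA only. Relaxed elements were found in 21 of the 87 regions (24.1%), against 24.1% of all regions.

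Of the other motifs searched, the GC box was found at 18 of the 87 summits (20.7%), against 12.5% of all. Promoter regions of any gene were 29 of the 87, against 21538 of all 84380. In promoter regions the GC box was found at 13 of 29, against 36.0% of all such regions. Outside promoters it was found at 5 of 58, against 4.42%. RUNX (TGTGGT) was found at 13 (14.9%), against 20.2%. NFAT (TGGAAA), whose factor pairs with AP-1 on composite sites in activated T cells, was found at 11, against 12.8% of all. STAT (TTCNNNGAA) was found at 5, against 6.81%, and NF-kB at 5, against 3.99%. NFAT was the closest of these to its share of all regions, and no test was made of the other differences. ETS (CCGGAAGT) was found at 3, against 1.23%, and T-box (AGGTGTGA) at 1, against 1.38%. The cAMP response element was found at none, against 0.633% of all regions. The half-site TGACG, added after the sequences were seen, was found at 15 (17.2%), against 10.1%. It was found at 9 of the 29 promoter regions, against 16.9%, and at 6 of the 58 others, against 7.82%.

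Some of the genes are neighbours. Fos and Batf lie 209.4 kb apart on chromosome 12, with Jdp2, which encodes a Jun partner that represses AP-1 targets, between them. The stretch from Fos to Batf, 235.2 kb with both genes included, held 34 regions found in both replicates. Batf3 and Atf3 lie 61.4 kb apart on chromosome 1. The stretch from one to the other, 120.2 kb with both genes included, held 21, of which 3 lay between their windows. Neither count was set against stretches of like length elsewhere.

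Nearly all other genes of the bZIP superfamily and of the signalling upstream had open promoters. An open promoter was found in 65.9% of all protein-coding genes. Of 42 other bZIP genes, 40 had an open promoter, or 95.2%, and Creb3l4 and Cebpe did not. The 40 promoters had a median signal of 9.12. Cebpg (16.5 and 16.8), Creb5 (15.6 and 15.0) and Atf7 (15.0 and 15.2) were highest. Creb3l3 (4.67 and 4.91), Atf6 (4.83 and 4.51) and Ddit3 (5.48 and 5.65) were lowest. Jdp2 had 6.73 and 7.25. Of 22 kinases and partners, such as the MAP kinases that phosphorylate Jun and the serum response factor cofactors, 21 had an open promoter, and Mapk10, the neuronal JNK gene, did not. Mrtfa, a cofactor of serum response factor, had 17.3 and 16.8, and Map2k4, which activates JNK, had 16.2 and 15.7. Elk4 (5.47 and 4.94), Map3k1 (6.06 and 5.53) and Nfatc1 (6.29 and 5.44) were lowest.

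The labelled cell type was checked on marker genes. All 6 T cell markers and all 4 T-helper 1 markers had open promoters, against 1 of 4 B cell markers, 1 of 4 myeloid markers, 2 of 3 NK cell markers and 0 of 4 hepatocyte markers. With 65.9% of all protein-coding genes having an open promoter, lists this short say little about cell identity. The part of other cells in the signal at the 10 genes was not tested.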

How the data were processed

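The deposited files are 1 list of open regions per replicate in mm10, each derived from that replicate's own alignments, per the file headers and the labels. Which aligner and region caller were used is not given in the sources used here. For each region the authors deposited a signal value, relative to a reference that is not stated, a −log10 p, a −log10 q, a display score (not used) and the summit offset. These are the authors' own values per region and were used to describe and rank regions within each list. The lists hold no read depth, so no counting interval is given, and the number of replicates limits the precision.

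Regions on chromosomes 1 to 19, X and Y were joined where the replicates overlapped by 1 bp or more, and a joined region took the strongest signal, −log10 p and −log10 q of each replicate. Genes and starts came from GENCODE M21 on GRCm38.p6, which has the coordinates of mm10. A promoter region lay within 1 kb of an annotated start, and regions outside promoters lay within 1 kb of no gene's start. Distances run from the 5′-most protein-coding start. Computation used Python 3.11.15 with NumPy 2.4.6, pysam 0.24.0 and matplotlib 3.10.9, and the joining and motif search were tested on simulated data. With 1 group, no statistical test was made. The genes, gene lists, motifs and the naming rule (all 10 genes, and of each other list the genes without an open promoter and the 3 highest and 3 lowest promoter signals) were chosen with earlier results of these data known. Under this rule, 1 gene is not reported here. Jdp2 was named outside the rule, for its place between Fos and Batf. The TATA box, half-site and variant AP-1 motifs and the 500 bp window before the start were added after the sequences were seen.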

Additional observations from a re-analysis of the deposited data

How the results depend on the processing

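Most values depended little on the settings tried: of 60 summary values 51 kept within 1.5 times of, or within the replicate spread of, the value given, and 9 did not. The window decides the counts. With the gene body alone, the 10 genes had 28 regions found in both replicates, a median of 2.5 each and 9 with TGACTCA at the summit, and in 2 genes the strongest region outside promoters exceeded the promoter. With 50 kb on either side there were 166 regions, a median of 18 each and 27 with TGACTCA. Searched in the whole region, TGACTCA was found in 29. Ordered by −log10 p, 0 of the 3 highest promoters by signal were among the 3 highest. With 1 replicate alone, the regions numbered 91 to 99, the median was 9.5 to 10, the regions with TGACTCA were 17 to 21, the genes with a stronger region outside promoters were 7 to 9, and 2 of the 3 highest promoters were still among the 3 highest. Of 130 single-gene values 107 held and 23 moved, 20 of them with the window. Signal depends on read depth, which is not in the lists. No paired analysis was possible because there is 1 group.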
